A study of Mus musculus with 12 samples.

Results

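Metallothioneins are small cysteine-rich proteins that bind zinc and copper, and 3 of their genes, Mt1, Mt2 and Mt3, were followed in cultured mouse oligodendrocyte precursor cells (OPCs, proliferating glia from which the myelin-forming oligodendrocytes arise). They were chosen by name as the listed members of the family, and are 3 of 55536 genes in the deposited tables and 3 of 17919 genes with enough reads to be tested. In OPCs treated with the glucocorticoid dexamethasone Mt2 rose 3.52-fold over all libraries, which passed the test in 1 of the 2 tools used. DESeq2, the tool that called it, called 0.508% of all genes higher in these cells and edgeR 0.117%. Mt1 and Mt3 were higher there in 3 of 3 replicates, as were 21% of all genes tested. They passed when libraries of the same replicate number were compared with each other, Mt3 in only 1 of the 2 tools. Mt2 rose 3.10-fold by that comparison and passed in both. By it DESeq2 called 2.05% of all genes higher and edgeR 1.31%. The edgeR call of Mt1 and the DESeq2 call of Mt3 were lost when certain single replicate numbers were left out. In OPCs treated with the cytokine IFN-γ Mt2 rose 1.85-fold by the same comparison within replicates. DESeq2 called 15.2% of all genes higher by it. Without pairing by replicate number, Mt2 did not pass upon IFN-γ treatment in either tool. Neither Mt1 nor Mt3 passed by either comparison.

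The cells came from brains of P4 to P6 mouse pups. Ctr-OPCs were untreated, Dexa-treated OPCs received 1 µM dexamethasone and IFN-γ-treated OPCs received 100 ng/ml IFN-γ, each treatment for 48 h, and all groups grew in medium with the growth factors PDGFaa and bFGF. The labels call all of them Sox10GFP+ OPCs and give EAE, the mouse model of multiple sclerosis, as the mouse model, although the protocol describes cultures from pups. In the study's line a Sox10-driven Cre switches on GFP, which marks the whole oligodendrocyte lineage. The labels allow 2 isolations, sorting for this GFP or magnetic beads against CD140a (the PDGF receptor α), and do not say which one a library came from. Several brains were pooled for each experiment and the 4 replicates of a group came from different litters. Each group had 4 libraries, 12 in all. The table of Dexa replicate 3 broke off after 33.7% of its transcripts and listed 0 metallothionein transcripts, so that Dexa-treated OPCs are represented by replicates 1, 2 and 4 and 11 libraries enter every value below. Reads in genes numbered 19209063 to 52074652 per library.

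In mammals, metallothioneins buffer intracellular zinc and copper, bind cadmium and other toxic metals, and react with oxidants through their cysteine thiols. Mt1 and Mt2 are made in most tissues, and in brain mainly by astrocytes. Their genes are induced by zinc through the transcription factor Mtf1 at short promoter motifs called metal response elements, and also by glucocorticoids through the receptor Nr3c1 and by cytokines that act through Stat3. Mt3 was first described as a growth inhibitory factor of the brain, is made mostly in the nervous system, and is known for responding little to metals. Mt4 belongs to stratified epithelium.

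The 4 genes lie on the plus strand of chromosome 8 (GRCm38, GENCODE M21), each with 3 exons in its first listed transcript. Mt4 spans chr8:94137197-94139031, Mt3 (ENSMUSG00000031760) chr8:94152607-94154146, Mt2 (ENSMUSG00000031762) chr8:94172664-94173568 and Mt1 (ENSMUSG00000031765) chr8:94179082-94180327. Mt3, Mt2 and Mt1 thus sit within 27721 bases, with 18517 bases between Mt3 and Mt2 and 5513 between Mt2 and Mt1.

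The 250 bases before each start site are shown because these neighbouring genes were each higher in 3 of 3 replicates upon dexamethasone treatment. They are RefSeq promoters (GRCm38.p6, plus strand, 5′ to 3′), found for 3 of 3 members, and capitals mark the core letters of a metal response element, TGCACNC or TGCGCNC, on either strand. The window of Mt1 is chr8:94178839-94179088, that of Mt2 chr8:94172368-94172617 and that of Mt3 chr8:94152357-94152606.
Mt1: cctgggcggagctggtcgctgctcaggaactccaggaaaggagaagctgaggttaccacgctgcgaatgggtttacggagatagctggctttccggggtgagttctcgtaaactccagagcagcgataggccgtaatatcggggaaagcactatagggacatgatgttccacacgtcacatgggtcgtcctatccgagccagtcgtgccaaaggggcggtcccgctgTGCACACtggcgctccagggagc
Mt2: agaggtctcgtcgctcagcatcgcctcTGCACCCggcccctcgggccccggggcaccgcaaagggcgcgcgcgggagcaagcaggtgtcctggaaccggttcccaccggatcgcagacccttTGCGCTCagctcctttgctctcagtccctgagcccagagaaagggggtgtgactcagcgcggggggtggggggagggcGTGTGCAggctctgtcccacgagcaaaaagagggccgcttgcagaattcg
Mt3: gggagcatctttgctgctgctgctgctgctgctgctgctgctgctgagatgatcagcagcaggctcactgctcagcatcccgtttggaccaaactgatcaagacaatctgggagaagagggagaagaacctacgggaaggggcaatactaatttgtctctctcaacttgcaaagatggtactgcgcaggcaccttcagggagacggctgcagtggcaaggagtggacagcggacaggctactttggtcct
The Mt2 window held 3 matches, the Mt1 window 1 and the Mt3 window 0. In Mt1 the match began at position -23, counted from the base before the RefSeq start as -1, and in Mt2 the matches began at -223, -128 and -50, the last of them on the minus strand. Among 32536 promoters of this length, 21.5% held at least 1 match, 5.21% at least 2 and 1.28% at least 3. RefSeq starts Mt2 46 bases before GENCODE does and Mt1 7 bases after it, so these positions depend on the annotation. The glucocorticoid half-site AGAACA (in 16.0% of promoters), its full palindrome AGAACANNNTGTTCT (0.00922%) and the motif TTCNNNGAA (7.04%) were searched on both strands and had 0 matches in each of the 3 windows, while the antioxidant motif TGACNNNGC (10.2%) had 1 in Mt2. A match describes letters and not a bound site, and sequence before or after the windows was not searched. Other annotated transcripts of each member start after its window, those of Mt1 at 94179211 and 94179241. The match counts therefore cover only the windows shown and not the whole promoter of a gene.

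All 3 genes held at least 163 estimated reads in every library, though Mt2 shares sequence with an antisense gene, as given below. Estimated reads per library ranged from 489 to 3715 for Mt1, from 163 to 1242 for Mt2 and from 1144 to 7457 for Mt3, where an estimated read is Salmon's share of a read fragment given to the transcripts of a gene. To compare the genes with each other, TPM was used, which is scaled by transcript length. Mt3, the brain form, averaged 162 ± 90.3 TPM in Ctr-OPCs (SD, n = 4), Mt1 57.8 ± 31.4 and Mt2 16.9 ± 7.33. The order Mt3, Mt1, Mt2 held in 11 of 11 libraries. Within a library the TPM of Mt3 was 1.91 to 3.20 times that of Mt1, and the TPM of Mt1 was 1.45 to 4.03 times that of Mt2. By TPM, Mt3 ranked between place 113 and place 836 of all genes, Mt1 between 253 and 2709 and Mt2 between 690 and 7070. Mt4 had 0 reads in 11 of 11 libraries, which allows a level of up to 0.0576 to 0.156 CPM per library (3 counts over the reads in genes, counting error only).

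Replicates differed widely. In the scale used from here on, counts divided by DESeq2's size factor of the library, Ctr-OPC replicates 1 to 4 held 1737, 1499, 404 and 780 normalized counts of Mt1. For Mt2 the values were 375, 370, 112 and 265. For Mt3 they were 5209, 3313, 1010.5 and 2213. Replicate 1 was highest and replicate 3 lowest for every member, with 3.34 to 5.16 times between them. The SD of the log2 normalized counts over the 4 Ctr libraries was 0.96 for Mt1, 0.81 for Mt2 and 1.00 for Mt3, larger than in 96.8%, 94.6% and 97.2% of the 12156 genes with a mean of at least 100, whose median SD was 0.20. Because libraries of the same replicate number deviated together over all genes, each comparison is given without and with the replicate number as a term of the model (a replicate block), which compares libraries of the same number with each other. The replicates of a group came from different litters, and whether a number marks the same litter in every group is not stated in the sources used here.

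**Figure D1:**
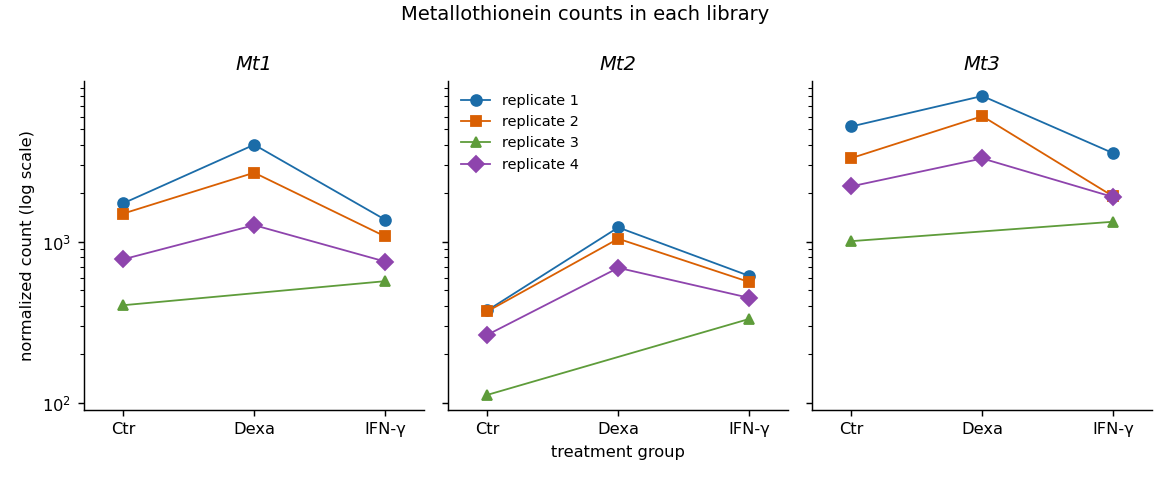
Normalized counts (log axis) of Mt1, Mt2 and Mt3 in each of 11 libraries by treatment group, where each point is a library and lines join libraries of one replicate number. Each member is highest in the Dexa library of replicates 1, 2 and 4, and replicate 1 is the highest and replicate 3, where measured, the lowest in every group and for every member.

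The first comparison asks what a glucocorticoid did to the metallothioneins of OPCs. In Dexa-treated OPCs, replicates 1, 2 and 4 held 1229, 1046 and 690 normalized counts of Mt2. All 3 values lie above the highest Ctr value of 375, so the groups did not overlap, as was the case in this direction for 2.58% of all genes tested. Within replicates Mt2 was 3.27, 2.82 and 2.60 times its Ctr level. The fitted log2 change was 1.82 ± 0.39 (SE), a fold of 3.52, with an adjusted p of 0.00129 (DESeq2). Mt2 was thus 1 of 3 members called higher, where 0.508% of all genes were called higher in this comparison. The quasi-likelihood test of edgeR, which calls 0.117% of genes higher, gave an adjusted p of 0.186, and with the replicate block both tools called Mt2, at 1.88e-21 in DESeq2 and 4.88e-04 in edgeR, around a log2 change of 1.63.

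Mt1, the other widely expressed member, held 4010, 2688 and 1270 normalized counts in Dexa replicates 1, 2 and 4. The third of these lies inside the Ctr range of 404 to 1737, so the groups overlapped. Within replicates Mt1 was 2.31, 1.79 and 1.63 times its Ctr level. Without the block the log2 change was 1.27 ± 0.51, with an adjusted p of 0.787 (DESeq2). With the block it was 1.02 ± 0.16, at 1.01e-07 in DESeq2 and 0.0113 in edgeR, and Mt1 was called higher by both. In edgeR this call was lost without replicate 1 (adjusted p = 0.0826) or replicate 2 (0.190).

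Mt3, the most abundant member, held 8048, 6030 and 3295 normalized counts in the Dexa libraries against 1010.5 to 5209 in Ctr-OPCs. The group ranges overlapped. Within replicates it was 1.55, 1.82 and 1.49 times its Ctr level. The log2 change was 0.98 ± 0.51 without the block, with an adjusted p of 1 (DESeq2), and 0.80 ± 0.17 with it. DESeq2 with the block called Mt3 (adjusted p = 2.67e-04), edgeR with the block did not (adjusted p = 0.0589), and DESeq2 with the block no longer called it when replicate 1 (0.497) or replicate 4 (0.278) was left out.

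All 3 members were thus higher in 3 of 3 replicates, which held for 21% of all genes tested. With the block, DESeq2 called 3 of 3 members higher and edgeR 2 of 3, where 2.05% and 1.31% of all genes were called higher. Over 27 alternative settings the log2 change ran from 1.54 to 2.19 for Mt2, from 0.84 to 1.90 for Mt1 and from 0.67 to 1.69 for Mt3, with adjusted p between 1.15e-32 and 0.186, between 1.47e-09 and 1, and between 1.39e-05 and 1. Mt2 was called in 25 of the 27, Mt1 in 9 and Mt3 in 4. The exceptions for Mt2 were edgeR without the block and DESeq2 without Dexa replicate 1 (adjusted p = 0.0699).

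**Figure D2:**
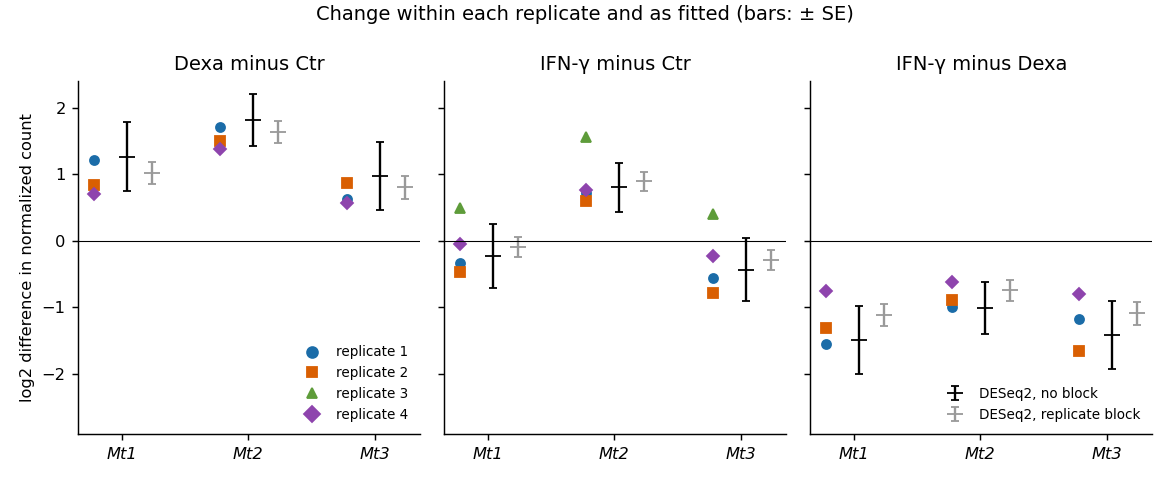
Log2 difference in normalized count (y axis) for each member in the 3 comparisons, with a coloured point for each replicate and bars for the DESeq2 estimate ± SE without (black) and with (grey) the replicate block. Points lie above 0 for all members in Dexa against Ctr and below 0 in IFN-γ against Dexa, while in IFN-γ against Ctr they do so only for Mt2 (all above 0).

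The second comparison asks how the cytokine acted on the same genes. IFN-γ-treated OPC replicates 1 to 4 held 615, 564, 332 and 449 normalized counts of Mt2. One value, that of replicate 3, lies inside the Ctr range of 112 to 375. Within replicates Mt2 was 1.64, 1.52, 2.96 and 1.70 times its Ctr level, higher in 4 of 4, as were 21.2% of all genes. The log2 change was 0.80 ± 0.36 without the block, which did not pass (adjusted p = 0.147, DESeq2, and 0.222, edgeR). With the block it was 0.89 ± 0.15 and passed in both tools, at 1.33e-08 in DESeq2 and 7.68e-04 in edgeR. It passed as well in 4 of 4 fits by each tool that left out all libraries of a replicate number, with log2 changes from 0.69 to 1.00.

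Mt1 held 1374, 1082, 570 and 755 normalized counts in IFN-γ-treated OPCs, all within the Ctr range. It was 0.791, 0.721, 1.41 and 0.968 times its Ctr level, lower in replicates 1, 2 and 4 and higher in replicate 3. The log2 difference was -0.23 (95% interval -1.16 to 0.71) without the block and -0.10 (-0.39 to 0.20) with it, with adjusted p of 0.862 and 0.708 (DESeq2). Mt3 held 3552, 1916, 1333 and 1897 normalized counts, again within the Ctr range. It was 0.682, 0.578, 1.32 and 0.857 times its Ctr level, with replicate 3 again the exception. Its log2 difference was -0.43 (-1.36 to 0.49) without the block and -0.29 (-0.59 to 0.01) with it, with adjusted p of 0.676 and 0.159 (DESeq2). Replicate 3 decides this last value, since without it the blocked log2 change of Mt3 was -0.51 and was called lower in DESeq2 (adjusted p = 8.79e-04) and in edgeR (0.0212).

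Without the block 0 of 3 members were called in this comparison, where DESeq2 called 12.8% of all genes and edgeR 8.44%. At an unadjusted p under 0.05, Mt2 passed in both tools and Mt1 and Mt3 in neither, so that 1 of 3 did. The shares of all genes above are at the adjusted threshold, and none is given for an unadjusted p. With the block Mt2 was called higher by both tools, where 15.2% of all genes were in DESeq2 and 16% in edgeR. Over the 27 alternatives its adjusted p ran from 1.33e-08 to 0.361, that of Mt1 from 0.126 to 0.982 and that of Mt3 from 8.79e-04 to 0.998.

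The third comparison sets the treatments against each other. It shares its libraries with the comparisons above and adds no independent data. Each member was lower upon IFN-γ treatment than upon dexamethasone treatment in 3 of 3 replicates, as were 29.3% of all genes. Mt1 was 0.343, 0.402 and 0.594 times its Dexa level in replicates 1, 2 and 4. Mt2 was 0.500, 0.539 and 0.651 times its Dexa level and did not overlap between the groups, as was the case in this direction for 8.77% of all genes. Mt3 was 0.441, 0.318 and 0.576 times its Dexa level. Without the block, the log2 change was -1.49 ± 0.52 for Mt1 (adjusted p = 0.0328, DESeq2) and -1.41 ± 0.51 for Mt3 (0.0445), both called lower, and -1.01 ± 0.39 for Mt2 (0.0673). These are 2 of 3 members, where 5.43% of all genes were called lower. edgeR gave 0.114, 0.131 and 0.140 for Mt1, Mt3 and Mt2 and called 0 of 3, where 3.1% of all genes were called lower. At an unadjusted p under 0.05 in edgeR, for which no share of all genes is given, 3 of 3 passed. With the block both tools called 3 of 3, where 15.4% of all genes were called lower in DESeq2 and 16.6% in edgeR. The blocked log2 changes were -1.11 ± 0.16 for Mt1, -0.74 ± 0.16 for Mt2 and -1.09 ± 0.17 for Mt3. Their adjusted p were 2.00e-10, 2.29e-05 and 3.30e-09 in DESeq2 and 5.32e-04, 0.00316 and 0.00121 in edgeR. Without replicate 2, edgeR with the block no longer called Mt2 (0.0603). Over the 27 alternatives they ran up to 0.228, 0.246 and 0.220, and down to 1.24e-17, 5.32e-11 and 1.56e-18.

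Ratios within a library do not depend on the scaling between libraries and set the members against each other. The count of Mt2 over that of Mt1 was 0.216, 0.247, 0.278 and 0.340 in Ctr-OPC replicates 1 to 4 and 0.448, 0.521, 0.583 and 0.595 in IFN-γ-treated OPCs. The lowest IFN-γ ratio lies above the highest Ctr ratio. The mean difference was 1.00 on the log2 scale, with p = 0.0286 in a two-sided exact permutation test, the smallest p that 4 against 4 libraries can give, and 0.114 after adjustment over the 6 ratio tests made. In Dexa-treated OPCs the ratio was 0.307, 0.389 and 0.543 in replicates 1, 2 and 4, which is 0.59 above Ctr on the log2 scale (p = 0.114, exact permutation test, adjusted p = 0.171) and overlaps it. Within replicates this ratio was higher than in Ctr in 4 of 4 pairs upon IFN-γ treatment and in 3 of 3 upon dexamethasone treatment, by 0.81 to 1.08 and by 0.50 to 0.68 on the log2 scale. In every group replicate 1 had the lowest ratio and replicate 4 the highest.

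Mt3 over the sum of Mt1 and Mt2 was 2.47, 1.77, 1.96 and 2.12 in Ctr-OPCs. It was 1.54, 1.62 and 1.68 in Dexa-treated OPCs, below each Ctr value, with a log2 difference of -0.36. That p of 0.0571 (exact permutation test) is the smallest that 3 against 4 libraries allow, so that this design cannot reach 0.05, and the adjusted p was 0.114. In IFN-γ-treated OPCs the ratio was 1.79, 1.16, 1.48 and 1.58, overlapping Ctr in replicate 1 alone, with a log2 difference of -0.48 (p = 0.0571, exact permutation test, adjusted p = 0.114). Between IFN-γ and Dexa the log2 differences were 0.41 for the first ratio and -0.12 for the second, with adjusted p of 0.206 and 0.571 (exact permutation tests). Within replicates the second ratio was lower than in Ctr in 4 of 4 pairs upon IFN-γ treatment (log2 differences of -0.61 to -0.40) and in 3 of 3 upon dexamethasone treatment (-0.68 to -0.13). With so few libraries an adjusted p over these 6 tests cannot go below 0.0571, so that whether the members changed unequally is not decided by them.

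**Figure D3:**
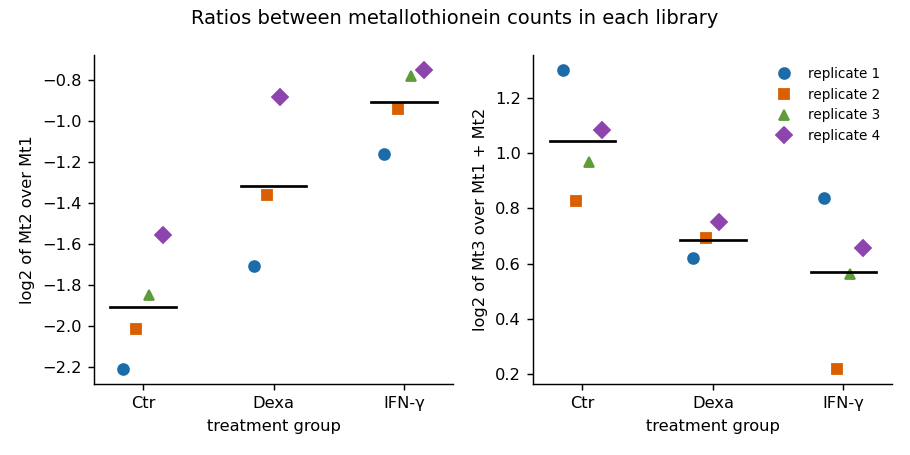
Log2 ratio of Mt2 to Mt1 (left) and of Mt3 to Mt1 plus Mt2 (right) in each library by treatment group, with bars for group means. IFN-γ libraries (0.448 to 0.595 on the linear scale) lie above all Ctr libraries (0.216 to 0.340) for Mt2 over Mt1, and Dexa libraries (1.54 to 1.68) lie below all Ctr libraries (1.77 to 2.47) for Mt3 over the sum.

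Nearly all reads of each gene fell to a single transcript. A transcript of 549 bases took 92.4% to 97.2% of Mt1 reads per library, one of 511 bases 99.6% to 100% of Mt2 reads and one of 536 bases 97.6% to 98.8% of Mt3 reads. Since stretches of 31 bases decide where Salmon can place a read, they were searched in all other genes' transcripts. Mt1 and Mt3 shared 0 of them with any other gene. Of 573 in Mt2, 330 also occur in Gm45774, an annotated gene on the opposite strand that overlaps Mt2, and 3 in Pip5k1a. Gm45774 was given 16 to 50 reads per library, against 163 to 1242 for Mt2. Whether the library's strand was used in this assignment is not given in the sources used here, so reads of Mt2 and of this antisense gene may be partly exchanged.

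Markers of other cells were read beside the metallothioneins, since astrocytes are their main source in brain. All 8 OPC markers on the list were tested, and their summed normalized counts were 124363 to 463585 per library. The 8 astrocyte markers (such as Slc1a3, a glutamate transporter, Aqp4, a water channel, and Gfap, an intermediate filament) were present in every library. They summed to 53189, 42234, 18366 and 27640 in Ctr-OPC replicates 1 to 4, the same order of replicates as in Mt3, Mt1 and Mt2. The sums were 67576, 56608 and 37384 in Dexa replicates 1, 2 and 4 and 54166, 48628, 37047 and 49349 in IFN-γ replicates 1 to 4. Slc1a3 and Aldoc had the highest medians of the 8 markers over the libraries, 21798 and 14680 normalized counts. Gfap was low, at 4.13 to 386 with a median of 48.9.

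Over the 11 libraries the log2 of the astrocyte marker sum had a Pearson r of 0.81 with Mt1, 0.88 with Mt2 and 0.77 with Mt3, and that of the OPC markers -0.39, -0.36 and -0.37. These describe libraries that share replicate numbers and treatments. Within replicates the astrocyte sum was 1.27 to 1.35 times its Ctr level upon dexamethasone treatment, where Mt2 was 2.60 to 3.27 times, Mt1 1.63 to 2.31 times and Mt3 1.49 to 1.82 times theirs. Upon IFN-γ treatment the sum was 1.02, 1.15, 2.02 and 1.79 times its Ctr level in replicates 1 to 4. Mt2 was 1.64, 1.52, 2.96 and 1.70 times its own. Mt1 was 0.791, 0.721, 1.41 and 0.968 times and Mt3 0.682, 0.578, 1.32 and 0.857 times theirs. In replicate 3 Mt1 and Mt3 were thus higher than in Ctr, and in replicates 1, 2 and 4 lower while the sum was higher. The fit without the block called 0 of 8 astrocyte markers between Dexa and Ctr (DESeq2, and 0 in edgeR, with 3 and 2 at an unadjusted p under 0.05). The blocked fits called 2.05% of all genes higher between these groups in DESeq2 and 1.31% in edgeR. DESeq2 with the block called 2 of the 8 markers higher, Gfap (log2 change 1.64) and Aldoc (0.98), named here after their values were seen. With the block edgeR called Aldoc (adjusted p = 0.0163) but not Gfap (0.108). Between IFN-γ and Ctr the same genes were called higher without the block in DESeq2, Gfap by 3.82 ± 0.59 (adjusted p = 3.98e-09) and Aldoc by 0.78 ± 0.28 (0.0399), where 8.02% of all genes were called higher, and edgeR called Gfap (0.00333) but not Aldoc (0.0985). With the block DESeq2 called 5 of the 8 markers higher and 2 lower and edgeR 4 and 2. Among all genes 15.2% and 16% were called higher there, and 14.1% and 15.3% lower. DESeq2 called Gfap higher between IFN-γ and Dexa as well (1.92 ± 0.63, adjusted p = 0.0219) and edgeR did not (0.110), and with the block both tools called 3 markers higher and 2 lower. The blocked shares over all genes in that comparison were 16.2% and 17.2% higher, and 15.4% and 16.6% lower, in DESeq2 and edgeR. The part of these markers in the metallothionein results was not tested. In bulk libraries a larger share of cells of one kind and more RNA per cell cannot be told apart. Of 12 microglia markers 2 had enough reads to be tested and the list summed to 18.4 to 59.1, with Cx3cr1 at 0 in 8 of 11 libraries and Tyrobp at 0 in 9.

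The remaining lists stayed far below the OPC sums. Mature oligodendrocyte markers (5) summed to 696 to 8468, neuron markers (7) to 502 to 878, endothelial and mural markers (6) to 109 to 388 and fibroblast markers (3) to 3.67 to 205. Upon dexamethasone treatment the mature oligodendrocyte sum was 1.33 to 1.58 times and the OPC sum 1.11 to 1.15 times its Ctr level. Upon IFN-γ treatment the mature oligodendrocyte sum was 0.694, 1.16, 0.372 and 0.151 times its Ctr level in replicates 1 to 4, lower in all but replicate 2. The OPC sum was 0.680 to 0.717 times its Ctr level. Of the 8 OPC markers, DESeq2 called 1 lower there without the block and 5 with it, and edgeR 0 and 5. Among all genes 4.83% and 14.1% were called lower in DESeq2, and 2.38% and 15.3% in edgeR. Gpr17, 1 of the 8, ranged from 2103 to 166557 normalized counts over the libraries.

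**Figure D4:**
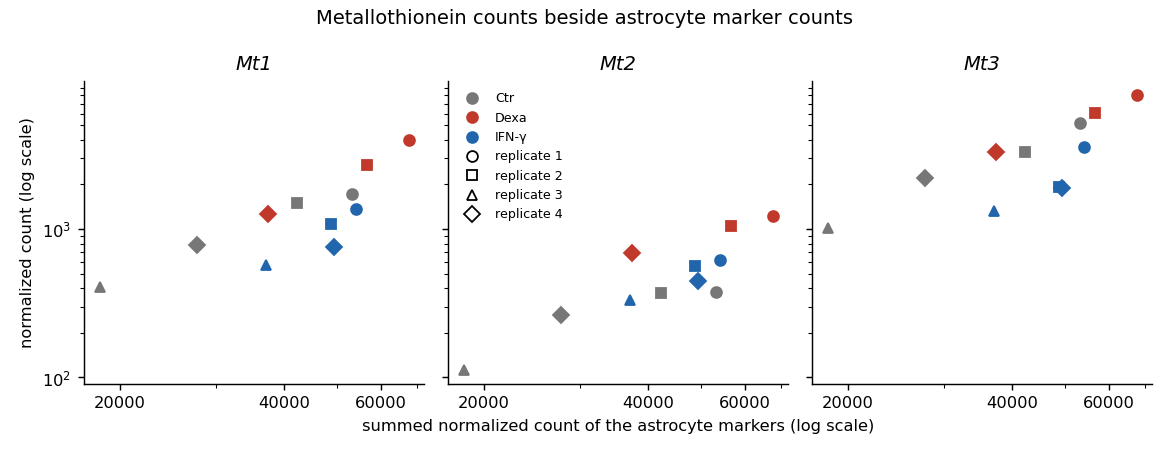
Normalized counts of each member (y axis, log) against the summed normalized counts of the 8 astrocyte markers (x axis, log) in 11 libraries, coloured by treatment group with a symbol for each replicate number. Over the 11 libraries the marker sum and the members had a Pearson r of 0.77 to 0.88, with exceptions between single libraries. IFN-γ replicate 4 had a larger sum than Ctr replicate 2 (49349 against 42234) and less Mt1 (755 against 1499). The Dexa libraries held more Mt2 than the Ctr and IFN-γ libraries, 690 to 1229 against 112 to 615.

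Genes that supply or answer to metallothionein regulation were taken as a list of 12. Mtf1, the zinc sensor that drives Mt1 and Mt2, held 1090 to 1149 normalized counts in Dexa-treated OPCs against 978 to 1084 in Ctr-OPCs, with a log2 change of 0.11 ± 0.07 (adjusted p = 1, DESeq2). In IFN-γ-treated OPCs it held 833 to 925 and was lower by DESeq2, with a log2 change of -0.20 ± 0.07 (adjusted p = 0.0191), but not by edgeR (0.122), and with the block both called it (0.0438 in DESeq2, 0.0352 in edgeR). Nr3c1, the glucocorticoid receptor, had a log2 difference of -0.15 ± 0.09 in Dexa-treated OPCs (adjusted p = 1, DESeq2) and of -0.17 ± 0.08 in IFN-γ-treated OPCs (0.213), neither of which passed. Cebpd, a transcription factor of the acute-phase response, was the only gene of this list called between Dexa and Ctr in DESeq2, with 166 to 379 normalized counts against 47.5 to 130 and a log2 change of 1.47 ± 0.40 (adjusted p = 0.0492). edgeR did not call it (0.546) and with the block both did (1.93e-07 in DESeq2, 0.00468 in edgeR).

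Upon IFN-γ treatment 5 of these 12 genes were called higher and 1, Mtf1, lower by DESeq2, and 4 and 0 by edgeR. Over all genes DESeq2 called 8.02% higher and 4.83% lower, and edgeR 6.06% and 2.38%. With the block both tools called 6 of the 12 higher and 2 lower. Blocked DESeq2 called 15.2% of all genes higher and 14.1% lower, and blocked edgeR 16% and 15.3%. The median of the 12 without the block was 0.24 on the log2 scale, beside -0.02 over all genes tested. Stat3, through which cytokines reach Mt1 and Mt2, held 18731 to 21978 normalized counts against 5502 to 6831 in Ctr-OPCs, a log2 change of 1.77 ± 0.14. The cytokine feedback inhibitor Socs3 changed by 1.40 ± 0.13, the acute-phase factor Cebpb by 1.87 ± 0.49 and Usf1, a factor that binds E-boxes, by 0.47 ± 0.07. Cebpb was low, at 3.49 to 48.1 normalized counts per library with a median of 14.7. The fifth, the oxidative stress factor Nfe2l2, named after its values were seen, changed by 1.02 ± 0.32 (adjusted p = 0.0153, DESeq2) and was called by edgeR only with the block (0.0695 without, 1.13e-06 with it).

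Between Dexa and Ctr the same list had a median log2 change of 0.07, beside -0.01 over all genes. Stat3 had a log2 difference of 0.14 ± 0.15 there (adjusted p = 1, DESeq2). Between IFN-γ and Dexa, 3 of the 12 genes were called higher, among them Stat3 (1.63 ± 0.15), and 2 lower, Cebpd (-1.94 ± 0.41) and Mtf1 (-0.31 ± 0.07), with the same counts in edgeR. Of all genes, 7.66% were called higher and 5.43% lower there in DESeq2, and 5.66% and 3.1% in edgeR. With the block both tools called 6 of the 12 higher and 2 lower. The blocked shares over all genes were 16.2% and 17.2% higher and 15.4% and 16.6% lower, in DESeq2 and edgeR.

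Of 24 zinc transporter genes on the list 19 had enough reads to be tested. Slc30a1, which exports zinc from the cell and is itself a target of Mtf1, had a log2 difference of 0.17 ± 0.13 in Dexa-treated OPCs (adjusted p = 1, DESeq2) and of -0.19 ± 0.13 in IFN-γ-treated OPCs (0.415). It was called in neither without the block. With it, edgeR called Slc30a1 lower upon IFN-γ treatment (adjusted p = 0.0348) and DESeq2 did not (0.0665). Between Dexa and Ctr 0 of 19 were called by DESeq2 or edgeR, with 0 at an unadjusted p under 0.05 in both, and the median log2 change was 0.03. With the block DESeq2 called 1 higher, Slc39a12 (0.90, adjusted p = 0.00398), a zinc importer named after its values were seen, which edgeR with the block did not call (0.0619). The blocked DESeq2 fit called 2.05% of all genes higher between Dexa and Ctr. Upon IFN-γ treatment DESeq2 called 3 importers of the Slc39 family higher, Slc39a14 (0.56 ± 0.13), Slc39a1 (0.33 ± 0.10) and Slc39a6 (0.23 ± 0.07), and Slc39a3 lower (-0.32 ± 0.07), with a median of -0.01 over the list. edgeR called Slc39a14 and Slc39a3 among these and not Slc39a1 (0.0542) or Slc39a6 (0.0589), which it called with the block (0.00148 and 0.00539). With the block DESeq2 called 4 of the 19 higher and 2 lower and edgeR 4 and 3. The blocked fits called 15.2% of all genes higher and 14.1% lower in DESeq2, and 16% and 15.3% in edgeR. Without the block these shares were 8.02% and 4.83% in DESeq2, and 6.06% and 2.38% in edgeR. Between IFN-γ and Dexa, DESeq2 called Slc39a14 (0.54 ± 0.14) and Slc39a6 (0.23 ± 0.08) higher and Slc39a3 (-0.34 ± 0.08) and Slc39a13 (-0.32 ± 0.11) lower, the last named after its values were seen. edgeR called Slc39a14 and Slc39a3 among these, and with the block both tools called 4 of the 19 higher and 3 lower, Slc30a1 among the latter (-0.33). In this comparison DESeq2 called 7.66% of all genes higher and 5.43% lower, and edgeR 5.66% and 3.1%. With the block the shares were 16.2% and 15.4% in DESeq2, and 17.2% and 16.6% in edgeR.

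All 12 copper-handling genes on the list were tested and 0 were called in any of the 3 comparisons by DESeq2 or by edgeR without the block. At an unadjusted p under 0.05, DESeq2 had 0 between Dexa and Ctr, 2 between IFN-γ and Ctr and 4 between IFN-γ and Dexa, and edgeR 0, 2 and 3. With the block, DESeq2 called 1 (Cp, the copper-carrying ferroxidase, log2 change 0.64), 4 (Cp at 0.60, the copper pumps Atp7a at 0.31 and Atp7b at 0.28, and Sod1, superoxide dismutase, at 0.23) and 3 (Sod1 at 0.32 and Commd1 at 0.42 higher, and the copper chaperone Atox1 at -0.25), all named after their values were seen. edgeR with the block called 0, 5 and 4, without Cp between Dexa and Ctr (adjusted p = 0.0636). The blocked DESeq2 fit called 29.2% of all genes between IFN-γ and Ctr and 31.6% between IFN-γ and Dexa, near the 4 and 3 of 12 here, and 2.57% between Dexa and Ctr. The blocked edgeR fit called 31.3%, 33.7% and 1.57% of all genes in these comparisons, in the same order.

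Of 9 genes beside or within the cluster on chromosome 8, Mt4 among them, 7 were tested, and between Dexa and Ctr 0 were called by DESeq2 or edgeR, without or with the block, with 1 and 0 at an unadjusted p under 0.05 without it and 3 and 3 with it. Their median log2 change was 0.01, against 1.82, 1.27 and 0.98 for Mt2, Mt1 and Mt3. Between IFN-γ and Ctr 0 were called without the block in either tool, with 1 at an unadjusted p under 0.05 in each. With it DESeq2 called Gnao1 lower (-0.67) and Nup93 higher (0.33), both named after their values were seen, and edgeR called 1 higher and 2 lower. In either direction, the blocked fits called 29.2% of all genes there in DESeq2 and 31.3% in edgeR. Between IFN-γ and Dexa Bbs2 (-0.43 ± 0.12) and Gnao1 (-0.90 ± 0.32, named after its values were seen) were called lower by DESeq2, and 0 by edgeR, with 3 at an unadjusted p under 0.05, and with the block both tools called 1 higher and 2 lower. Without the block 5.43% of all genes were called lower there in DESeq2 and 3.1% in edgeR. The blocked fits called 31.6% and 33.7% of all genes in either direction.

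**Figure D5:**
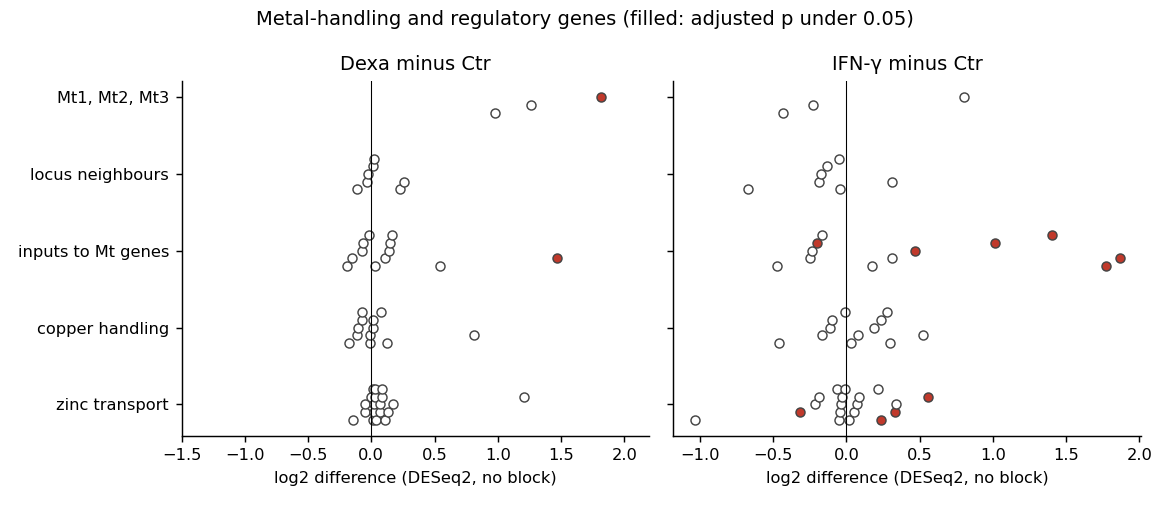
Log2 difference (x axis, DESeq2 without block) of each tested gene of the 4 lists and of the 3 members, for Dexa against Ctr (left) and IFN-γ against Ctr (right, on an axis of its own), where filled points have an adjusted p under 0.05. On the left only Mt2 (1.82) and Cebpd (1.47) are filled. On the right filled points lie among regulators, led by Cebpb (1.87) and Stat3 (1.77), and among zinc transporters. Cebpb was low, at 3.49 to 48.1 normalized counts per library.

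Genes whose levels ran most like those of each member were found by Pearson's r of log2(normalized count + 1) over the 11 libraries, among 12155 other genes with a mean of at least 100. Nearest to Mt1 were AI464131 (0.981), Enho (0.980), Raver2 (0.975), Mt3 (0.974) and Egln1 (0.966). Nearest to Mt3 were Cst3 (0.985), Cntfr (0.983), AI464131 (0.982), Mt1 (0.974) and Pard3b (0.973). Cst3 encodes the protease inhibitor cystatin C, Cntfr the receptor subunit for ciliary neurotrophic factor and Egln1 an oxygen-sensing prolyl hydroxylase. Nearest to Mt2 were Bcl2l1 (0.963), Trim9 (0.940), Klf9 (0.939), Aldoc (0.928) and Kirrel3 (0.926). Bcl2l1 encodes the survival protein Bcl-xL, Klf9 is a known glucocorticoid-induced transcription factor, and Aldoc is a glycolytic enzyme that also stands among the astrocyte markers above. Mt1 and Mt3 were thus the fourth-nearest gene of each other, while Mt2 came at place 194 for Mt1 (0.854) and at place 538 for Mt3 (0.791). The libraries share replicate numbers and treatments, so these values describe likeness over both together.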

How the data were processed

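Total RNA libraries of cultured OPCs were prepared with a stranded kit. Trimmed reads were quantified by the authors in Salmon 0.8.2, which gave the deposited estimated counts and TPM values per transcript, 1 table per library. The submitters' processing notes also name STAR, DESeq2, mm10 and GRCm38. The authors' 3 tables of log2 fold changes, p-values and mean counts were not used. Transcripts matched GENCODE M21, and estimated counts were summed per gene and rounded.

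A minimum of 10 counts in 4 or more libraries left 17919 genes, which were tested with DESeq2 1.42.0, with group as the only term, as the study's methods name DESeq2 and state no covariate, with Benjamini-Hochberg adjustment and a threshold of 0.05. edgeR 4.0.16 (quasi-likelihood), a replicate block, other scalings and left-out libraries were alternatives, 2 of them added after seeing the data: leaving out tables whose numbers carry 6 fixed decimals, and leaving out a whole replicate number from the blocked fits. Deviations from group means correlated at 0.404 to 0.722 between libraries of the same number and at -0.614 to 0.495 otherwise, so the numbers were taken to pair the libraries. Replicates came from different litters, and that a number marks 1 litter across groups is not stated. Replicates 3 and 4 share a title prefix whose meaning is not stated, and within-replicate values serve as within-batch values. Ratios were compared by exact permutation. Fits were tested on simulated counts. Intervals are 95% Wald intervals. Shares of all genes called are at an adjusted p under 0.05, and counts at an unadjusted p stand without such a share. PCR copies were not told apart from molecules, so counting limits cover counting error only. No 2 replicates of a group agreed within sampling noise (chi-square per degree of freedom at least 23.6).

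Members and lists were chosen with earlier results of these data known. Named were the members, Mtf1, Nr3c1, Slc30a1, Stat3 and Mt4, up to 8 other list genes called per comparison with the smallest adjusted p, and the 5 genes most like each member. 1 gene of the list of regulators is not reported here and entered no count or median of that list. Protein sequences were not used here.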

Additional observations from a re-analysis of the deposited data

How the results depend on the processing

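Counts of called genes moved with the replicate block. Between IFN-γ and Ctr 2302 genes were called, against 1513 in edgeR, 5238 with the block in DESeq2 and 5606 with it in edgeR, and 1577 to 5074 when a library or, with the block, a replicate number was left out. Between Dexa and Ctr 98 were called, against 22, 460 and 282, 178 from tables in the common number format, and 29 to 424 when a library or number was left out (59 without Dexa replicate 2, without the block). Between IFN-γ and Dexa 2345 were called, against 5662 and 6045 with the block, and 1649 to 5667 when a library or number was left out. The cause of these shifts was not tested.

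The block alone brought 4 of the 9 member results past the threshold in DESeq2 (from 3 to 7) and 6 in edgeR (from 0 to 6) and took none away. New beside DESeq2 without the block were calls at log2 changes of 1.02 and 1.02 (Mt1, DESeq2 and edgeR) and 0.80 (Mt3, DESeq2 alone) between Dexa and Ctr, 0.89 and 0.88 (Mt2) between IFN-γ and Ctr, and -0.74 and -0.75 (Mt2) between IFN-γ and Dexa. edgeR without the block lost Mt2 between Dexa and Ctr (1.82) and Mt1 (-1.48) and Mt3 (-1.41) between IFN-γ and Dexa, and Mt3 there was also lost with no filter on low counts (-1.41, adjusted p = 0.0506). Mt2 between IFN-γ and Dexa passed when only these 2 groups were fitted (-1.01). Tables in the common number format brought past the threshold Mt1 between Dexa and Ctr (1.90) and Mt2 between IFN-γ and Dexa (-1.22), with 3 Ctr and 2 Dexa libraries. The small difference of Mt1 between IFN-γ and Ctr turned positive without Ctr replicate 1 (0.0798), in the common number format (0.0785) and in the blocked fits without replicate 2 (0.0376 in DESeq2 and 0.0356 in edgeR), at adjusted p of 0.92 or more.

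With a library left out, or a replicate number with the block, log2 changes between Dexa and Ctr ran from 0.84 to 1.60 for Mt1, 1.54 to 2.02 for Mt2 and 0.67 to 1.41 for Mt3. Between IFN-γ and Ctr they ran from -0.50 to 0.0798 for Mt1, 0.54 to 1.00 for Mt2 and -0.77 to -0.00227 for Mt3. Between IFN-γ and Dexa they ran from -1.83 to -0.90 for Mt1, -1.22 to -0.61 for Mt2 and -1.75 to -0.84 for Mt3. In the last comparison, unblocked, Mt1 kept its call in 6 of 11 such fits and Mt3 in 4 (lost, among others, without Dexa replicate 1, at -1.07 and -1.10), and Mt2 gained one without Ctr replicate 3 (-1.02) or Dexa replicate 4 (-1.22). The 6 ratio tests could pass after adjustment in no setting, with too few libraries, and say nothing about stability. With the replicate block, within-replicate differences in Mt2 over Mt1 averaged 1.00 upon IFN-γ treatment (exact sign-flip test, p = 0.125, the smallest that 4 pairs allow). Other scalings moved the median of all genes by less than 0.1 on the log2 scale and changed no member's call. Each member held at least 163 estimated reads per library, and the Ctr libraries had SDs of 0.81 to 1.00 on the log2 scale. Which of depth and spread limits these comparisons was not tested.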
